A study of Bos grunniens and Bos grunniens x Bos taurus with 6 samples.

Results

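The genes described here are those of the myosin light chains and of the kinase that phosphorylates them in skeletal muscle: MYLPF, MYL1, MYL2, MYL3, MYL6, MYL6B and MYLK2. For each symbol, the gene identifier with most reads of that name over all 6 libraries was taken, and every transcript of that identifier was summed. The 7 genes were among 31044 in the deposited table, and held 2208 of its 179856 transcripts. Each muscle myosin carries heavy chains, which bear the motor, and light chains wrapped around the neck of each head. Essential light chains stiffen the neck, while regulatory light chains can be phosphorylated by a kinase that calcium-bound calmodulin switches on, which in skeletal muscle strengthens contraction. Fast and slow fibres are known to use different light chains, so the set is commonly read beside fibre type.

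The muscle was longissimus dorsi, which runs along the spine. Libraries came from 3 samples of cattle-yak, the hybrid labelled Bos grunniens x Bos taurus, and from 3 samples of yak, Bos grunniens. All 6 were made from total RNA by nanopore cDNA-PCR sequencing, which reads amplified cDNA of whole transcripts. No treatment was labelled, and the sources used here do not give sex, age or feeding. The labels also do not say whether each sample is its own animal, so p-values measure only how far these samples spread, and part of that spread may be technical.

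The libraries held between 2350851 and 2769106 counts, and the 7 genes took between 7.91% and 9.48% of a library. Principal component 1 of all genes, with 51.5% of the variance, separated the groups. Levels below are CPM, read counts relative to the library's total, scaled by the trimmed mean of M values (TMM), and are not divided by transcript length, so levels of different genes are not compared. Groups are given as mean ± SD over 3 libraries each, fold changes are log2 of cattle-yak over yak ± SE, and a gene is said to have risen or fallen where edgeR's quasi-likelihood test gave a Benjamini-Hochberg adjusted p under 0.05 over all 7504 genes tested. In bulk muscle, fewer cells of a type and less RNA per cell cannot be told apart.

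MYL6B was alone among the 7 genes in passing the gene test, and it rose in cattle-yak. The other 6 did not pass. Among all genes tested, 12.6% passed, 6.45% by rising and 6.18% by falling, so 1 of 7 is near the background and is not a result about the set. On the TMM scale, the groups did not overlap in 2 of the 7, MYL1 and MYL6B, MYL1 being lower and MYL6B higher in cattle-yak. That happened in 32.9% of all genes tested, with 16.4% higher and 16.5% lower in cattle-yak. The TMM factors were 1.004 to 1.084 in cattle-yak and 0.9299 to 0.9757 in yak, which lowers cattle-yak levels beside yak. Scaled by library total alone, MYL1 overlapped between the groups, while MYL2 (narrowly), MYL3 and MYL6 did not, being higher in cattle-yak. The median log2 fold change of the 7 was 0.13, beside 0.0244 over all genes tested.

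**Figure D1:**
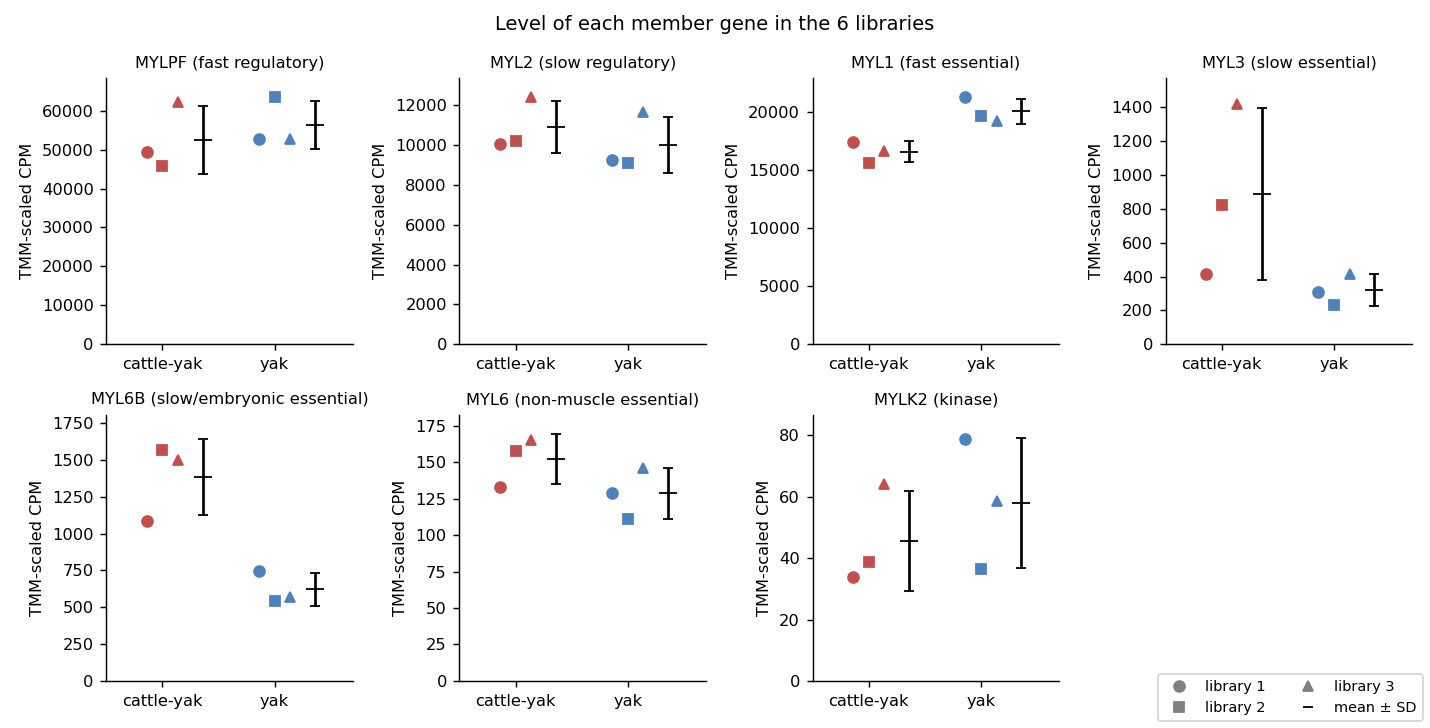
Level of each of the 7 genes (TMM-scaled CPM, linear axes from 0) in the 3 cattle-yak libraries (red, left) and the 3 yak libraries (blue, right), with the group mean ± SD in black. MYL6B lay between 1089 and 1571 CPM in cattle-yak and between 544.9 and 748.1 CPM in yak, and MYL3 spread from 412.9 to 1422 CPM within cattle-yak.

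Neither regulatory light chain of the sarcomere passed the test. MYLPF (ENSBGRG00000025933), the regulatory light chain of fast fibres, had 49296, 45861 and 62214 CPM in cattle-yak 1, 2 and 3, against 52791, 63445 and 52616 CPM in yak 1, 2 and 3. Cattle-yak 3 and yak 2 were the high libraries, and the groups overlapped. Its means were 52457 ± 8622 CPM in cattle-yak and 56284 ± 6202 CPM in yak, and the log2 fold change came to -0.09 ± 0.17 (edgeR adjusted p = 0.771). The sign of that value was not stable, since it was 0.06 with library size alone as the scale.

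MYL2 (ENSBGRG00000013402), the regulatory light chain of slow fibres and of heart ventricle, had 10062, 10202 and 12394 CPM in cattle-yak, against 9251, 9105 and 11635 CPM in yak. The third library was the high one in both groups, and the groups overlapped on the TMM scale. Scaled by library total alone, they narrowly did not overlap. The means were 10886 ± 1308 CPM in cattle-yak and 9997 ± 1421 CPM in yak, and the log2 fold change came to 0.13 ± 0.17 (edgeR adjusted p = 0.644).

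Among the essential light chains, MYL1 (ENSBGRG00000004749), which is that of fast fibres, had 17406, 15613 and 16611 CPM in cattle-yak, against 21284, 19589 and 19214 CPM in yak. On the TMM scale every cattle-yak library lay below every yak library, but scaled by library total alone the groups overlapped. The means were 16543 ± 898 CPM in cattle-yak and 20029 ± 1103 CPM in yak. The log2 fold change of -0.27 ± 0.15 did not pass edgeR's test (adjusted p = 0.271).

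MYL3 (ENSBGRG00000013193), the essential light chain of slow fibres and of heart ventricle, had 412.9, 824.6 and 1422 CPM in cattle-yak, against 311.3, 232 and 416.3 CPM in yak. The cattle-yak libraries were far apart, and the groups overlapped on the TMM scale, because cattle-yak 1 lay just under yak 3. Scaled by library total alone, they did not overlap. The means were 886.4 ± 507 CPM in cattle-yak and 319.9 ± 92.4 CPM in yak. The log2 fold change of 1.48 ± 0.47 did not pass edgeR's test (adjusted p = 0.1). Without cattle-yak 1 it passed, at 1.82 (edgeR adjusted p = 0.0033). With all 6 libraries it also passed with limma-voom (0.0376), no low count filter (0.038) and no robust dispersion (0.0206).

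MYL6B (ENSBGRG00000001320), an essential light chain known from slow skeletal muscle and from non-muscle cells, had 1089, 1571 and 1498 CPM in cattle-yak, against 748.1, 544.9 and 572 CPM in yak. All 3 cattle-yak libraries were above all 3 yak libraries. The gene rose to 1386 ± 260 CPM in cattle-yak, against 621.7 ± 110 CPM in yak, or 1.17 ± 0.19 on the log2 scale (edgeR adjusted p = 0.00157). It passed under all 18 alternatives run, with log2 fold changes between 1.04 and 1.4 and adjusted p between 1.8e-06 and 0.0123.

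MYL6 (ENSBGRG00000001372), the essential light chain of smooth muscle and non-muscle myosin, lies next to MYL6B in the RefSeq gene table of the yak assembly Bosgru_T2T1.0. It had 133.2, 158 and 165.4 CPM in cattle-yak, against 129, 110.9 and 145.9 CPM in yak. The ranges overlapped between 133.2 and 145.9 CPM on the TMM scale, but did not overlap when scaled by library total alone. The means were 152.2 ± 16.8 CPM in cattle-yak and 128.6 ± 17.5 CPM in yak, and the log2 fold change came to 0.25 ± 0.17 (edgeR adjusted p = 0.359). Whether the neighbours shared reads was not tested.

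MYLK2 (ENSBGRG00000016487), the kinase that phosphorylates the regulatory light chain of skeletal muscle, was the least deeply counted of the 7, with 762 reads in all. It had 33.7, 38.62 and 64.01 CPM in cattle-yak, against 78.91, 36.53 and 58.53 CPM in yak. High and low libraries occurred in both groups, which overlapped. The means were 45.44 ± 16.3 CPM in cattle-yak and 57.99 ± 21.2 CPM in yak, and the log2 fold change came to -0.34 ± 0.31 (edgeR adjusted p = 0.522). The counts behind it were 87, 99 and 178 in cattle-yak and 181, 85 and 132 in yak.

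Shares between light chains of one kind are taken within a library and need no scaling. MYL2 made up 17%, 18.2% and 16.6% of the reads of both sarcomeric regulatory chains (MYL2 plus MYLPF) in cattle-yak, against 14.9%, 12.5% and 18.1% in yak. Yak 3 lay inside the cattle-yak range, so the slow share of the regulatory chains overlapped between the groups. The means were 17.3% ± 0.835 in cattle-yak and 15.2% ± 2.79 in yak, a difference of 2.06 points (two-sided exact permutation p = 0.3, 0.4 adjusted over the 4 shares tested).

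MYL3 made up 2.32%, 5.02% and 7.88% of MYL3 plus MYL1 reads in cattle-yak, against 1.44%, 1.17% and 2.12% in yak. Every cattle-yak library was above every yak library, with cattle-yak 1 close to yak 3. The difference was 3.49 points, with means of 5.07% ± 2.78 in cattle-yak and 1.58% ± 0.49 in yak. The two-sided exact permutation p was 0.1, the smallest that 3 against 3 libraries allow, and 0.2 adjusted over the 4 shares.

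MYL6 made up 10.9%, 9.14% and 9.95% of MYL6 plus MYL6B reads in cattle-yak, against 14.7%, 16.9% and 20.3% in yak. The groups did not overlap, and the means were 10% ± 0.884 in cattle-yak and 17.3% ± 2.83 in yak. The difference of -7.32 points again reached the smallest exact permutation p of 0.1 (0.2 adjusted). The 6 light chain genes together held 8.49%, 8.04% and 9.47% of all counts in cattle-yak, against 8.25%, 8.65% and 7.91% in yak. These overlapped, with means of 8.67% ± 0.729 in cattle-yak and 8.27% ± 0.371 in yak (exact permutation p = 0.6, also 0.6 adjusted).

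A share of MYL6B in the reads of MYL1, MYL3 and MYL6B was added after the data had been seen, and is given without a p. It was 5.76%, 8.72% and 7.67% in cattle-yak, against 3.35%, 2.68% and 2.83% in yak. With MYL3 added to MYL6B, the share was 12.1% ± 3.66 in cattle-yak and 4.48% ± 0.583 in yak. Neither share overlapped between the groups.

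**Figure D2:**
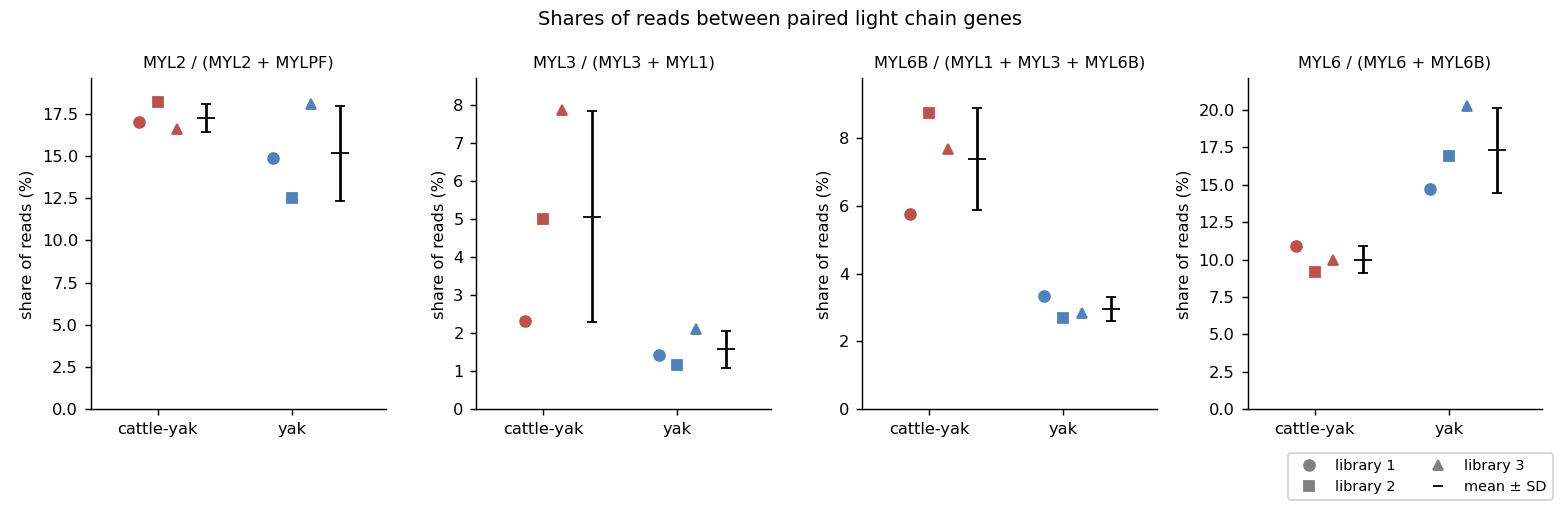
Share of reads (%, linear axes from 0) that the first-named gene took of the genes named in each panel, in the 3 cattle-yak libraries (red, left) and the 3 yak libraries (blue, right), with mean ± SD in black. The share of MYL2 overlapped between the groups, while those of MYL3, MYL6B and MYL6 did not, MYL6 being lower in cattle-yak (10% ± 0.884) than in yak (17.3% ± 2.83).

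Most of the 2208 transcripts of the 7 genes had too few reads to test. The 204 that were tested held 98.4% of the reads. Of these, 33 rose in cattle-yak, 9 fell and 162 did not pass edgeR's test, adjusted over all 15804 transcripts tested. Among all transcripts tested, 18.5% passed, 9.64% rose and 8.86% fell. The 42 called are 20.6% of those tested, near the background, and are not a result about the set. The count was 49 without cattle-yak 1, 21 without cattle-yak 2 and 22 without cattle-yak 3 (21.4%, 9.17% and 9.82% of those tested, beside 16.8%, 11.6% and 15.7% of all transcripts). It was 20, 19 and 23 without yak 1, 2 and 3 (8.97%, 8.3% and 9.83%, beside 12.1%, 11.6% and 12.3%).

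The called transcripts were unevenly spread over the genes. MYL6B had 11 of 14 tested that rose and MYL3 6 of 8, and neither had any that fell. MYL1 had 10 that rose and 6 that fell of 61. MYLPF had 2 that rose and 1 that fell of 65, MYL2 3 and 1 of 45, MYL6 1 and 0 of 7, and MYLK2 0 and 1 of 4. The median log2 fold change was 1.78 over the tested transcripts of MYL3 and 1.27 over those of MYL6B, beside 0.0044 over all transcripts tested. Transcripts of a gene share their locus, so they are not replicates of it.

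**Figure D3:**
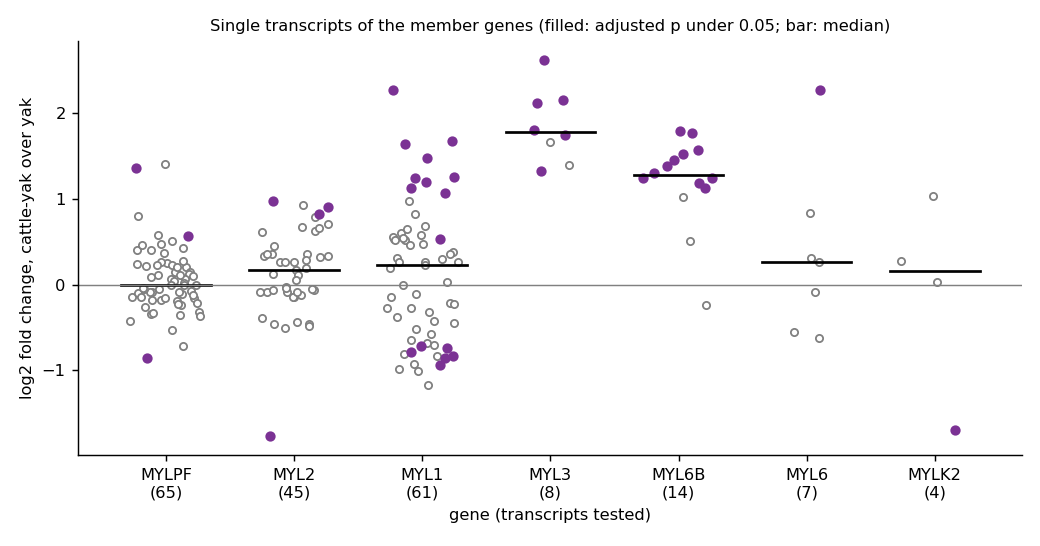
Log2 fold change of cattle-yak over yak for each tested transcript of the 7 genes, by gene, with the number tested in brackets. Filled points have an edgeR adjusted p under 0.05 and bars are medians. MYL3 and MYL6B sit above 0 apart from 1 MYL6B transcript, while called transcripts of MYL1 lie on both sides of 0.

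The reads of MYL6B rested mostly on its reference transcript ENSBGRT00000002433, which held 69.82% ± 0.442 of the gene's reads in cattle-yak and 69.49% ± 0.666 in yak. It rose to 966.9 ± 176 CPM in cattle-yak, against 431.6 ± 73 CPM in yak, or 1.19 ± 0.19 on the log2 scale (edgeR adjusted p = 0.000901). The assembled transcript TALONT001158688, next in size, rose by 1.13 ± 0.25 (edgeR adjusted p = 0.00608). TALONT001169005 rose by 1.79 ± 0.31 and TALONT001158639 by 1.30 ± 0.25. All 4 passed in each of 12 alternatives, and the test of transcript usage, which asks whether a gene's transcripts changed relative to each other, did not pass for MYL6B (edgeR diffSpliceDGE adjusted p = 0.928).

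For MYL3, the reference transcript ENSBGRT00000024243 held 67.71% ± 1.04 of reads in cattle-yak and 72.06% ± 2.97 in yak. Its log2 fold change of 1.40 ± 0.50 did not pass (edgeR adjusted p = 0.12), and it passed without cattle-yak 1 (0.0057). The 6 transcripts that rose were all assembled. TALONT000481674, the largest of them, had 30.21, 63.19 and 103.2 CPM in cattle-yak, against 17.87, 18.48 and 23.5 CPM in yak. All 3 cattle-yak libraries were higher, and it rose by 1.75 ± 0.40 (edgeR adjusted p = 0.0173). That call was lost without cattle-yak 2 (0.0771) and without yak 1 (0.0792), 2 (0.078) or 3 (0.0501). TALONT000481670 rose by 2.16 ± 0.45 and passed in all 12 alternatives, while TALONT000481675 (1.81 ± 0.41) missed the threshold without cattle-yak 2 (0.0524). Transcript usage of MYL3 did not pass (adjusted p = 0.761).

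The leading transcripts of MYL1 moved in opposite directions. It is known to make a longer and a shorter protein from alternative promoters, and which of them each transcript encodes was not analysed here. The reference transcript ENSBGRT00000008784 had 8791, 6033 and 6132 CPM in cattle-yak, against 12805, 11560 and 10890 CPM in yak. All 3 cattle-yak libraries were lower, cattle-yak 1 being nearest to yak. It fell to 6985 ± 1564 CPM in cattle-yak, against 11752 ± 972 CPM in yak (log2 fold change -0.72 ± 0.17, edgeR adjusted p = 0.00945), and passed in all 12 alternatives.

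The largest assembled transcript of MYL1, TALONT000799635, went the other way. It had 4418, 5677 and 6281 CPM in cattle-yak, against 4123, 3411 and 4086 CPM in yak, and the groups did not overlap. It rose by 0.53 ± 0.17 (edgeR adjusted p = 0.0446). That call was lost without cattle-yak 2 (0.103) or 3 (0.12) and without yak 1 (0.0979), 2 (0.225) or 3 (0.116). As shares of MYL1 reads, ENSBGRT00000008784 took 50.5%, 38.64% and 36.92% in cattle-yak, against 60.16%, 59.01% and 56.68% in yak. TALONT000799635 took 25.38%, 36.36% and 37.81% in cattle-yak, against 19.37%, 17.41% and 21.26% in yak.

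The usage test of MYL1, over these 2 transcripts, passed (edgeR diffSpliceDGE adjusted p = 0.00821), as it did for 8.62% of the 1821 genes tested for usage. It missed the threshold without cattle-yak 2 (0.0588), yak 1 (0.0574) or yak 2 (0.0522). The deposited description of TALONT000799635 is that of a hamster (Mesocricetus auratus) protein, myosin light chain 1/3. The 122 MYL1 transcripts with that description took 27.1%, 39.2% and 40.4% of the gene's reads in cattle-yak, against 20.4%, 18.4% and 22.5% in yak. TALONT000799635 itself held 70036 of their 74634 reads, so these shares mostly restate its own.

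Smaller MYL1 transcripts also went both ways. TALONT000799647 rose by 1.68 ± 0.29, to 131.6 ± 43.3 CPM in cattle-yak against 42 ± 11.4 CPM in yak. TALONT000800093 rose by 1.25 ± 0.24 and the reference transcript ENSBGRT00000008910 by 1.13 ± 0.25, while TALONT000555976 fell by 0.78 on the log2 scale (SE 0.18). These 4 passed in all 12 alternatives. TALONT000556456 (log2 fold change -0.83 ± 0.24, edgeR adjusted p = 0.0259) missed the threshold without cattle-yak 2 (0.0874) or 3 (0.0738) and without yak 1 (0.0596) or 2 (0.0783).

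The share of reads in transcripts with a reference identifier, all of them yak names, moved with the group for MYL1: it was 43.27% ± 7.07 in cattle-yak and 59.13% ± 1.8 in yak. With only reference transcripts of all genes, the log2 fold change of MYL1 was -0.49 (edgeR adjusted p = 0.0814), and with only assembled ones it was 0.17 (0.51). For the other genes whose leading transcript has a reference identifier, that share was 91.9% ± 0.156 in cattle-yak and 92.85% ± 0.127 in yak for MYLPF. It was 62.19% ± 1.84 in cattle-yak and 57.88% ± 1.23 in yak for MYL2, 67.74% ± 0.989 in cattle-yak and 72.09% ± 3.03 in yak for MYL3, and 69.84% ± 0.454 in cattle-yak and 69.51% ± 0.667 in yak for MYL6B. The groups did not overlap in this share for MYLPF, MYL2 and MYL3 either, MYL2 being higher in cattle-yak. They overlapped for MYL6B. How often the groups do not overlap in this share over all genes was not computed, so this is not a result about the set. Whether reads of cattle alleles in the hybrid were assigned as completely as yak reads was not tested.

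**Figure D4:**
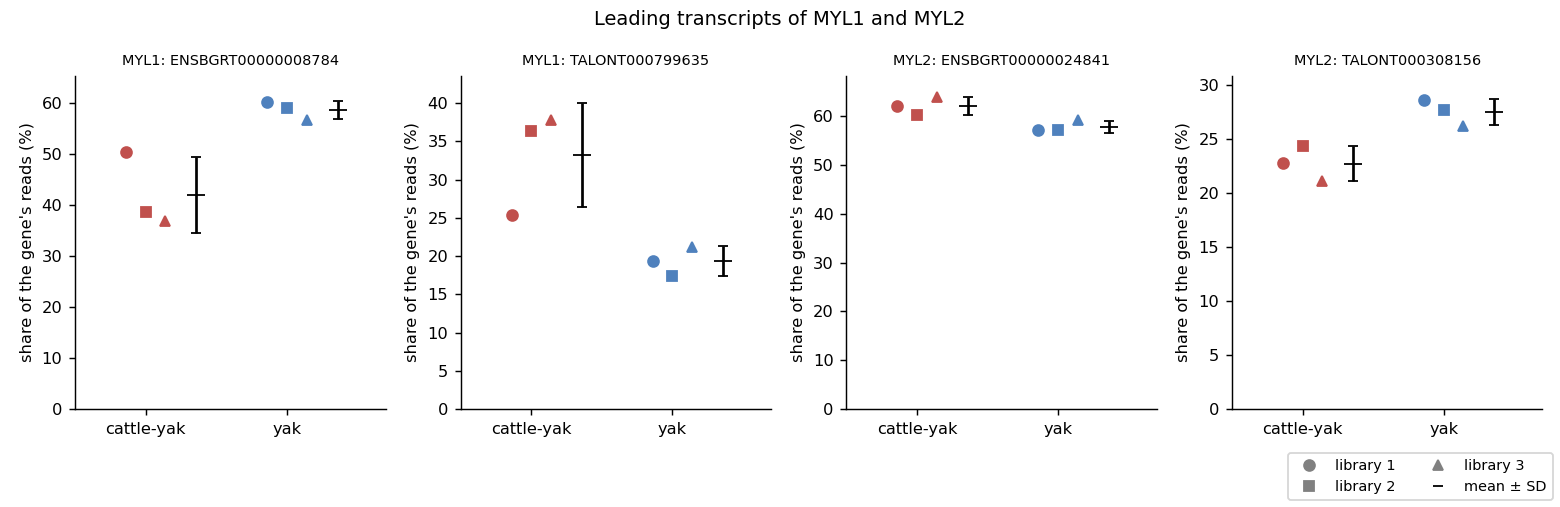
Share of the gene's reads (%, linear axes from 0) in the leading reference transcript and the leading assembled transcript of MYL1 and of MYL2, in the 3 cattle-yak libraries (red, left) and the 3 yak libraries (blue, right), with mean ± SD in black. For MYL1 the reference transcript was lower (42.02% ± 7.4) in cattle-yak than in yak (58.62% ± 1.78), and for MYL2 it was higher in cattle-yak (62.09% ± 1.85) than in yak (57.78% ± 1.23).

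MYL2 showed the reverse order of reference and assembled transcripts. Its reference transcript ENSBGRT00000024841 held 62.02%, 60.28% and 63.97% of reads in cattle-yak, against 57.06%, 57.09% and 59.2% in yak. TALONT000308156 held 22.72%, 24.31% and 21.06% in cattle-yak, against 28.6%, 27.68% and 26.23% in yak. The groups overlapped in neither share, but the usage test did not pass (adjusted p = 0.348). By level, neither passed, with log2 fold changes of 0.26 ± 0.16 and -0.12 ± 0.15, and the second was 0.03 with library size alone as the scale.

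The transcripts of MYL2 that passed were small. TALONT000308323 rose by 0.98 ± 0.24, TALONT000309063 by 0.83 ± 0.23 and TALONT000308245 by 0.91 ± 0.26. Each missed the threshold without at least 1 library, namely cattle-yak 3 (0.0547) or yak 1 (0.0718) for TALONT000308323, cattle-yak 3 (0.0898) or yak 1 (0.0695) or 2 (0.132) for TALONT000308245, and all but cattle-yak 1 for TALONT000309063 (0.0528 to 0.102). TALONT000310866, under 10 CPM on average and named because it alone fell, had a log2 fold change of -1.77 ± 0.50 whose call was lost without any 1 library other than cattle-yak 3 (0.0674 to 0.103).

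In MYLPF, the reference transcript ENSBGRT00000047981 held 92.4% of all reads of the gene. Its levels were 48215 ± 8007 CPM in cattle-yak and 52255 ± 5717 CPM in yak (log2 fold change -0.09 ± 0.16, edgeR adjusted p = 0.747), a value that was 0.07 with library size alone. TALONT000688704 rose by 0.57 ± 0.19 and TALONT000689282 fell by 0.85 on the log2 scale (SE 0.27). Both missed the threshold without any 1 library other than cattle-yak 1, with adjusted p between 0.0817 and 0.23 for the first and between 0.051 and 0.145 for the second. TALONT000688613 also rose, by 1.36 ± 0.36, at under 10 CPM on average. Usage could not be tested, because only 1 transcript reached 5% of the gene's reads.

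In MYL6, the leading transcripts TALONT001175746 and TALONT001175744 did not pass, at log2 fold changes of 0.31 ± 0.22 and 0.26 ± 0.23. The first held 32.16% ± 1.66 of reads in cattle-yak and 31.58% ± 4.07 in yak. The single transcript that rose, TALONT001175780, had 23, 14 and 19 reads in cattle-yak, against 5, 4 and 1 reads in yak, or 2.27 ± 0.50 on the log2 scale (edgeR adjusted p = 0.00656). It was named because it alone passed, lay below 10 CPM on average, and missed the threshold with DESeq2 (adjusted p = 0.0649). The usage test of MYL6 did not pass (adjusted p = 0.948).

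MYLK2 had no transcript with a reference identifier, and its largest assembled one fell. TALONT000370817 had 13, 10 and 22 reads in cattle-yak, against 62, 28 and 39 reads in yak, and the groups did not overlap. It fell to 5.616 ± 2.07 CPM in cattle-yak, against 18.78 ± 7.61 CPM in yak (log2 fold change -1.70 ± 0.38, edgeR adjusted p = 0.00727), and passed in all 12 alternatives. Its share of MYLK2 reads was 14.94%, 10.1% and 12.36% in cattle-yak, against 34.25%, 32.94% and 29.55% in yak.

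The other MYLK2 transcripts in the test did not pass. TALONT000373752 had a log2 fold change of 1.04 ± 0.48, with shares of 12.33% ± 0.819 in cattle-yak and 4.602% ± 0.943 in yak, and TALONT000373339 one of 0.28 ± 0.39. TALONT000372423 had 0.03 ± 0.43. Of the 7 transcripts with at least 5% of the gene's reads, the rest had too few reads to test. TALONT000370816 had 14, 9 and 20 reads in cattle-yak, against 7, 6 and 3 in yak. Its shares were 12.14% ± 3.59 in cattle-yak and 4.4% ± 2.44 in yak. TALONT000372073 took 4.838% ± 3.25 in cattle-yak and 5.059% ± 3.37 in yak. TALONT000372417 took 6.948% ± 5.35 in cattle-yak and 4.189% ± 0.761 in yak. The usage test of MYLK2, over the 4 tested transcripts with 50.8% of its reads, passed (edgeR diffSpliceDGE adjusted p = 0.00962). It missed the threshold without cattle-yak 1 (0.0959), cattle-yak 2 (0.16) or yak 3 (0.188), and with the Simes method (0.119) or a minimum share of 10% (0.0911).

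The other genes that act on light chains came from a list of 27 symbols in 4 groups: other light chains (among them MYL11, a newer symbol of MYLPF itself, found here only as MYLPF), kinases and calmodulins, the light chain phosphatase, and turnover and assembly of myosin. Of these, 18 were found under their own leading name and 12 were tested, of which 2 rose, 3 fell and 7 did not pass. The median log2 fold change of the 12 was 0.01. With 12.6% of all genes passing, 5 of 12 is above that share, but the list was chosen with earlier results of these data known. The excess is therefore not a result about the list, and no test of it was made.

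The other light chain that was tested was a gene (ENSBGRG00000022681) whose transcripts are named for regulatory light chains of smooth muscle and non-muscle myosin, 67.3% of its reads MYL12A and 32.2% MYL9, so these were not separable. It had 3081, 2456 and 3017 CPM in cattle-yak, against 1356, 987 and 1318 CPM in yak. All cattle-yak libraries were higher, and it rose by 1.23 ± 0.18 (edgeR adjusted p = 0.000668). Reads named MYL12A made up 72.3%, 68.3% and 71.5% of it in cattle-yak, against 55.4%, 56% and 61.6% in yak.

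Among kinases and calmodulins, ROCK2, a kinase that acts on light chains and on their phosphatase in smooth muscle, rose to 89.68 ± 4.06 CPM in cattle-yak, against 38.04 ± 8.49 CPM in yak (log2 fold change 1.25 ± 0.19, edgeR adjusted p = 0.00118). CALM3, a gene for calmodulin, fell to 304.5 ± 93.2 CPM in cattle-yak, against 566.8 ± 32.6 CPM in yak (-0.89 ± 0.21, edgeR adjusted p = 0.0156), and missed the threshold without yak 2 (0.0525). No gene was found under the names CALM2, MYLK3, MYL7, MYL10 or PPP1R12B.

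None of the 4 phosphatase genes tested passed. PPP1CB, the catalytic subunit of the myosin phosphatase, had -0.47 ± 0.16 on the log2 scale (edgeR adjusted p = 0.072), and PPP1R12A, its myosin-targeting subunit, 0.43 ± 0.24 (0.282). Of the assembly factors, UNC45B, a chaperone of myosin heavy chains, fell to 94.65 ± 35.3 CPM in cattle-yak, against 203.2 ± 38.4 CPM in yak (-1.09 ± 0.25, edgeR adjusted p = 0.017). That call was lost without cattle-yak 2 (0.0791), yak 2 (0.0585) or yak 3 (0.0511). SMYD1, a muscle methyltransferase that binds myosin, fell to 33.04 ± 5.13 CPM in cattle-yak, against 125.4 ± 7.39 CPM in yak (-1.91 ± 0.18, edgeR adjusted p = 3.69e-05). HSP90AA1, a chaperone that works with UNC45B, had 0.36 ± 0.17 and did not pass (0.178).

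**Figure D5:**
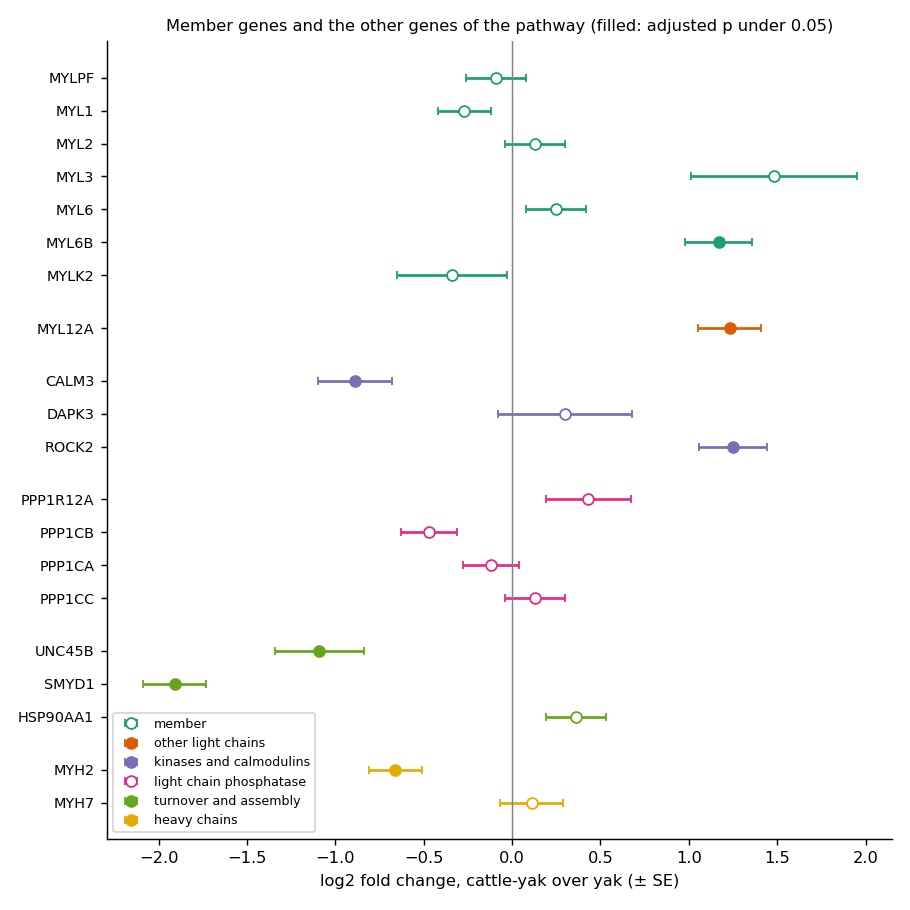
Log2 fold change of cattle-yak over yak (± SE) for the 7 genes and for tested genes of the light chain pathway and heavy chains, by group (colours). Filled points have an edgeR adjusted p under 0.05, with MYL6B, MYL12A and ROCK2 above 0 and CALM3, UNC45B, SMYD1 and MYH2 below 0.

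The heavy chain partners were MYH2, of fast fibres, and MYH7, of slow fibres, though the reads of both genes carry several names. The MYH2 gene, 26.7% of whose reads are named MYH1, fell to 16576 ± 1225 CPM in cattle-yak, against 26342 ± 2230 CPM in yak (log2 fold change -0.66 ± 0.15, edgeR adjusted p = 0.0135), and missed the threshold without yak 2 (0.0697). With only reference transcripts of all genes, its log2 fold change was -2.49. The gene taken for MYH7, with 44.3% of its reads named MYH7 and 18.2% named MYH8, a heavy chain of developing muscle, had 3272 ± 393 CPM in cattle-yak and 3063 ± 596 CPM in yak (0.11 ± 0.18, adjusted p = 0.744), a value whose sign changed with no low count filter (-0.02).

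Ratios of light to heavy chain reads were added after the data had been seen and carry no test. MYLPF had 2.83, 3.02 and 3.63 reads per read of the MYH2 gene in cattle-yak, against 1.99, 2.23 and 2.19 in yak, and MYL1 had 0.999, 1.03 and 0.969 in cattle-yak, against 0.803, 0.688 and 0.8 in yak. Neither ratio overlapped between the groups. MYL2 had 3.37, 2.74 and 3.99 reads per read of the MYH7 gene in cattle-yak, against 3.39, 3.36 and 3.1 in yak, and these overlapped. MYL3 per read of the MYH7 gene was 0.138, 0.222 and 0.457 in cattle-yak, against 0.114, 0.0857 and 0.111 in yak, without overlap. MYL2 per MYL3 read was 24.4, 12.4 and 8.72 in cattle-yak, against 29.7, 39.2 and 27.9 in yak.

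Markers of fibre types and other cells were counted beside these results, and their part in them was not tested. Of 8 tested fast fibre markers, 0 rose, 3 fell (MYH2, ATP2A1 and CASQ1) and 5 did not pass (TNNT3, TNNI2, TNNC2, ACTN3 and MYBPC2). Of 8 tested slow fibre markers, MYOZ2 rose (0.80 ± 0.19, edgeR adjusted p = 0.0133) and MYBPC1 fell. The other 6 did not pass (MYH7, TNNT1, TNNI1, TNNC1, ATP2A2 and CASQ2). Among all genes tested, 6.45% rose and 6.18% fell. None of 6 tested smooth muscle markers passed, and the markers counted summed to 1172 to 1679 CPM in cattle-yak and 1174 to 1590 CPM in yak. Most of that was SYNPO2, at 1052 to 1502 CPM in cattle-yak and 1037 to 1431 CPM in yak. MYL9, also listed, was not counted, because MYL12A leads its identifier, and that gene rose (1.23 ± 0.18). Its reads named MYL9 numbered 2169, 1967 and 2346 in cattle-yak, against 1377, 1003 and 1130 in yak. Macrophage markers summed to 35.25 to 80.74 CPM in cattle-yak and 14.61 to 27.93 CPM in yak, with CTSS the 1 of 2 tested that rose. Endothelial markers summed to 28.66 to 58.51 CPM in cattle-yak and 24.49 to 30.52 CPM in yak. Fibroblast markers summed to 204.1 to 379.9 CPM in cattle-yak and 367.1 to 464.3 CPM in yak. Of 4 tested, COL3A1 and LUM fell, and COL1A1 and DCN did not pass. DCN, the largest part of the sum, had 224.6 ± 67.4 CPM in cattle-yak and 216.9 ± 38.4 CPM in yak (0.06 ± 0.23).

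Adipocyte markers summed to 1.937 to 17.16 CPM in cattle-yak and 13.95 to 20.84 CPM in yak, with no gene under ADIPOQ or PLIN1. The markers of heart or developing muscle that were counted, MYL4 and MYH3, summed to 1.438 to 3.901 CPM in cattle-yak and 0 to 0.8594 CPM in yak. No gene was found under MYL7 or NPPA. MYH8 and TNNT2, also listed, were not counted, because MYH7 and TNNT1 lead their identifiers. Over all libraries, those identifiers held 8556 reads named MYH8 and 934 named TNNT2, so the sum does not cover them. The call of ATP2A1 was lost without cattle-yak 2 (0.0997), yak 1 (0.132) or yak 3 (0.0731), and that of MYOZ2 without yak 1 (0.0604) or 2 (0.0774).

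The genes most like MYL6B in their profile over the 6 libraries, by root mean square distance between centred log2 CPM, were ASS1 (0.116), an enzyme of arginine synthesis, ZFAND5 (0.119), a zinc finger protein, and ANO6 (0.137), a membrane scramblase. They were taken from 3391 named genes with a mean of at least 10 CPM, on the same libraries as MYL6B itself. ZFAND5 had 66.97 ± 15.7 CPM in cattle-yak and 29.06 ± 3.53 CPM in yak, and ANO6 had 43.55 ± 9.39 CPM in cattle-yak and 20.37 ± 1.88 CPM in yak. With only reference transcripts, ANO6 had a log2 fold change of 0.15 in place of 1.11.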

How the data were processed

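Nanopore cDNA-PCR libraries of 3 cattle-yak and 3 yak muscle samples were compared. What the authors deposited is a table of raw read counts for each transcript and CPM scaled to each library's total. The deposited CPM matched the counts within 0.0050. Per the submitters' processing notes, fastp, minimap2 and GSNAP were used, while the sources used here name neither a genome build nor the counting software. The table's 132 lines without values were left out, and 61 transcripts without a gene identifier (at most 0.0025% of a library's counts) were kept out of the gene counts.

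Counts were summed by gene identifier and tested by the robust quasi-likelihood method of edgeR 4.0.16 (R 4.3.3), after filterByExpr and TMM scaling, with Benjamini-Hochberg adjustment, for genes and for single transcripts. Transcript usage was tested with diffSpliceDGE on transcripts that passed filterByExpr and had at least 5% of their gene's reads. Shares were compared with exact permutation tests. The SE is the log2 fold change over the square root of the F statistic. The tests were tried on simulated data. The alternatives were DESeq2 1.42.0, limma-voom (limma 3.58.1), other scalings and filters, other row sets, leaving out each library, and a replicate block. Python 3.11.15 (pandas 2.3.3, matplotlib 3.10.9) made the figures.

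The members and gene lists were chosen with earlier results of these data known. All members are named, with each transcript of at least 5% of its gene's reads and, at a mean of at least 10 CPM, up to 3 called transcripts per direction and gene. Of the lists, the called genes, up to 6 other tested pathway genes, and some markers and untested genes are named. The 3 genes nearest to each called member are named too. Of the lists, 1 gene is counted but not reported here. A listed gene counted only where its symbol led the reads of its identifier. Counts of replicate libraries differed beyond sampling noise, with chi-square values of 7.43 to 13.5 per gene, so none was counted as a duplicate. Reads were amplified by PCR and carry no molecular identifiers, so a read is not an independent molecule.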

Additional observations from a re-analysis of the deposited data

How the results depend on the processing

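Of the alternatives to the gene results, those of MYL3 changed side most often: it passed with limma-voom (log2 fold change 1.35), no low count filter (1.36), no robust dispersion (1.48), the replicate block (1.36) and without cattle-yak 1, and ranged from 0.95 to 1.82 without 1 library. The number of called members was then 2 in each of these, and 1 to 2 without 1 library. MYLPF changed sign with library size alone (0.06), reference transcripts only (0.11), assembled transcripts only (0.05) and without cattle-yak 2 (range -0.24 to 0.0011). With assembled transcripts only, MYL1 was 0.17 and MYL2 -0.06. MYH7 was -0.02 with no low count filter. The leading MYLPF transcript was 0.07 with library size alone (-0.23 to 0.01 without 1 library), and TALONT000308156 was 0.03 with library size alone. TALONT000372423 was -0.02 with no filter, -0.01 with the block and -0.44 to 0.3 without 1 library (-0.20 without yak 2, -0.08 without yak 3). Called member transcripts numbered 42, 18 with DESeq2 (4.69% of those tested, beside 5.86% of all transcripts) and 19 to 49 without 1 library. With DESeq2 the calls of TALONT000799635, TALONT000556456, TALONT000309063, TALONT000308245, TALONT000689282, TALONT000688704, TALONT000310866 and TALONT001175780 were lost (adjusted p 0.0649 to 0.213). Called usage genes numbered 2 of the 7 genes without MYLPF, which could not be tested, beside 157 of 1821 over all genes. They numbered 1 with the Simes method (57 of 1821 over all genes) and 1 at a minimum share of 10% (81 of 1484). With no minimum they numbered 4, MYL2 and MYL6 being added, beside 307 of 1965 over all genes. Without 1 library they numbered 0 to 2, beside 71 to 145 over all genes, of 1988 to 2073 tested. The 6 light chain genes' share difference was -4.96e-05 to 0.713 points without 1 library. The cause of these changes was not tested. Over all genes, the median log2 fold change was 0.181 with library size alone and 0.0244 with TMM. Same-numbered samples did not deviate together over all genes (correlations -0.0382, -0.0157 and 0.0168), so the main test did not pair them. The labels do not say whether same-numbered samples were handled together. The block gave 455 genes that rose and 435 that fell. Of the 7 genes, MYLK2 had the fewest reads, 85 to 181 a library.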

Other observations

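Several genes that handle light chains were too low to test. MYL4, the light chain of heart atrium and of developing muscle, had 1.549, 0 and 0.7192 CPM in cattle-yak, against 0, 0 and 0 CPM in yak. MYLK, the kinase of smooth muscle, had 2.324, 2.73 and 3.237 CPM in cattle-yak, against 1.308, 0.8594 and 1.33 CPM in yak. MYLK4, a kinase of the same family, had 1.549, 0.7801 and 1.438 CPM in cattle-yak, against 2.18, 1.719 and 3.104 CPM in yak. MYLIP, a ubiquitin ligase named for its binding to regulatory light chains, had 2.711, 8.191 and 5.394 CPM in cattle-yak, against 3.488, 3.867 and 2.66 CPM in yak. The groups did not overlap for MYLK and MYLK4, each at a few reads a library, and no test was made.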
